A study of Mus musculus with 4 samples.

Results

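The Notch receptors, ligands, glycosyltransferase and Hes/Hey genes described here are 10 genes of the mouse table of nuclear RNA: Notch1, Notch2 and Notch3, the ligand genes Jag1 and Dll1, Lfng, and the target genes Hes1, Hes7, Hey1 and Heyl. They were taken by gene symbol, each has 1 transcript row, and they stand among 25177 genes in all. NIH-3T3, an established line of mouse embryonic fibroblasts, carried a CDX2 transgene under the TRE3G promoter, the rtTA3G transactivator and an H2B-mCherry reporter in both groups, and puromycin was in the medium of both. In the Dox group (2 libraries) doxycycline was added at 500 ng/ml and cells were collected 6 h later; in the noDox group (2 libraries) only the solvent was added. The labels give the same dose per microlitre in another field, they do not say whether the line is 1 clone, and cells without the transgene given doxycycline were not analysed here, so that CDX2 and doxycycline cannot be told apart. All values come from the authors' deposited table, which holds 1 comparison and 0 values per library, so the spread between the 2 libraries of a group is not shown.

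Notch receptors are membrane proteins that are cut when a ligand of the Delta or Jagged family on a neighbouring cell pulls on them. The freed intracellular part enters the nucleus, binds RBPJ and Mastermind proteins, and turns on target genes, among them the Hes and Hey genes of basic helix-loop-helix repressors. Fringe enzymes such as LFNG add a sugar to the receptor and alter which ligands it answers to. In the presomitic mesoderm, where CDX proteins are also at work, Lfng and Hes7 oscillate as parts of the segmentation clock.

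Notch1 and Hes1 rose and Lfng and Jag1 fell with doxycycline, while Notch2 was not called, in the authors' deposited table. Notch1 was 2.55-fold higher and Hes1 2.26-fold higher, whereas Lfng was 2.21-fold lower and Jag1 1.36-fold lower in the authors' deposited table. These 5 genes had a geometric mean of at least 10 counts per library and were tested, and 4 of them passed the threshold of 0.05 on the adjusted p that the authors' deposited table gives (limma), against 24.7% of the 12355 genes tested in the whole series. By direction, 2 of the 5 were higher and 2 lower, against 11.3% and 13.4% of all genes tested. Calls of at least 2-fold were made for 3 of the 5, against 1.68% of all genes tested. The members were chosen with earlier results of these data known, so these shares describe them and test nothing. The other 5 members had fewer counts. Hes7 was counted at a low level, and Notch3, Dll1, Hey1 and Heyl were at or near 0.

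**Figure D1:**
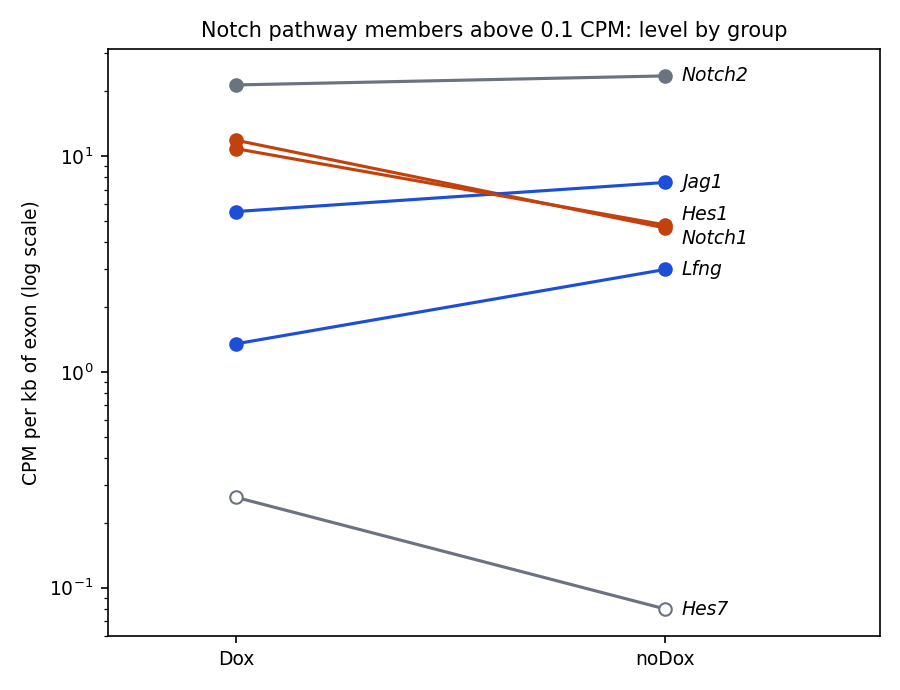
Level of the 6 members with a mean above 0.1 CPM, in CPM per kb of exon on a log axis, with the Dox group on the left and the noDox group on the right. Notch1 and Hes1 lie below Jag1 in the noDox group and above it in the Dox group; open points mark Hes7, which was below 10 counts and not tested.

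Cells of the line gave reads for 8 of 8 fibroblast marker genes, with mean levels between 5.64 and 2086 CPM in the authors' deposited table. Their summed level was 5479 CPM with doxycycline and 6626 CPM without it. By the calls, 6 of the 8 fell and 2 were not called, beside 13.4% of all genes tested that were lower. The largest of these falls on the log2 scale was that of Pdgfrb (-0.81), followed by Col1a2 (-0.33). Of 17 marker genes of epithelial, endothelial, leukocyte, neural and muscle cells, 3 had no reads (Krt18, Cd3e and Myod1) and the highest was the endothelial gene Cdh5 at 3.86 CPM in the authors' deposited table. The epithelial gene Cdh1, at a mean of 0.814 CPM, fell. The 17 genes summed to 7.74 CPM with and 9.29 CPM without doxycycline, and their part in the results below was not tested. The authors' deposited table puts Cdx2 at 612 CPM in the Dox group and 4.96 CPM in the noDox group (log2 fold change 6.95 ± 0.091, standard error), and its row does not part transgene from endogenous reads. In nuclear RNA pooled over the cells of a library, fewer cells of a type and less RNA per cell cannot be told apart.

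Among the receptors, Notch1 stood at 112 CPM in the Dox group and 43.8 CPM in the noDox group, as worked out from the mean level and fold change of the authors' deposited table. Its log2 fold change was 1.35 ± 0.067, with an adjusted p of 2.38e-87, in the authors' deposited table. Among the 12355 genes tested, 30 had a larger positive log2 fold change. NOTCH1 is the receptor best known from somite boundaries and lymphocyte fate. Its row (NM_008714, mm10 chromosome 2, 26457902 to 26503822, minus strand) shares 1068 exonic bases with the noncoding gene 0610009E02Rik on the opposite strand, which lies at the far end of Notch1. That gene had a mean of 4.90 CPM and a log2 fold change of 1.22 ± 0.12 in the authors' deposited table. Notch1 also shares 414 exonic bases with Gm13568, likewise on the opposite strand. The sources used here do not say whether counting was strand-specific, and the part of shared reads in the Notch1 value was not tested.

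Notch2, a receptor with broad expression in mesenchyme, was the most abundant member. It stood at 223 CPM in the Dox group and 246 CPM in the noDox group, from the authors' deposited table. The log2 fold change was -0.14 ± 0.061 (95% interval -0.26 to -0.019), and the adjusted p of 0.123 in the authors' deposited table did not pass. The row of Notch2 (NM_010928, chromosome 3, 98013538 to 98150367, plus strand) shares 541 exonic bases with the unconfirmed gene Gm42820. The log2 fold change of Notch1 exceeded that of Notch2 by 1.49 (95% interval 1.31 to 1.67, errors taken as independent). Per kb of exon, the level of Notch1 was 55.4% of that of Notch2 in the Dox group and 19.7% in the noDox group.

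Notch3, a receptor known from vascular smooth muscle and pericytes, was close to silent. Its mean level is what 1 count in 1 library would give, and the sign of the fold change places that count in the Dox group (NM_008716, chromosome 17, 32120820 to 32166890). Notch4, the remaining mouse receptor and known from endothelium, is described here for comparison. It stood at 20.6 CPM in the Dox group and 26.4 CPM in the noDox group. In the authors' deposited table (limma) Notch4 fell by 0.36 ± 0.075 on the log2 scale (adjusted p 3.62e-05). That call was not kept with standard errors widened as given for Jag1 below. The difference between the log2 fold changes of Notch1 and Notch4 was 1.71 (95% interval 1.51 to 1.91).

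Of the ligands, Jag1 encodes JAGGED1, which activates receptors on neighbouring cells. Jag1 (NM_013822, chromosome 2, 137081451 to 137116520, minus strand) stood at 30.2 CPM in the Dox group and 41.1 CPM in the noDox group, from the authors' deposited table. It fell by 0.45 ± 0.071 on the log2 scale, with an adjusted p of 1.39e-08 in the authors' deposited table. That call rests on the small pooled error of the table, since its adjusted p was 0.0928 once all standard errors were multiplied by 2.08, which is the robust SD of the moderated t in the set of tested genes. Dll1 (NM_007865, chromosome 17, 15367354 to 15375823), a Delta ligand gene that CDX proteins are known to regulate in mouse embryos, had 0 counts in every library. A count of 0 allows up to 0.0656 CPM in 1 library of mean size, a limit that covers counting error only.

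Lfng (NM_008494, chromosome 5, 140607341 to 140615545, plus strand) encodes lunatic fringe, a glycosyltransferase of the Golgi. It stood at 3.07 CPM in the Dox group and 6.78 CPM in the noDox group, from the authors' deposited table. The log2 fold change was -1.14 ± 0.11 with an adjusted p of 4.15e-22 in the authors' deposited table, and 103 of the 12355 genes tested had a more negative one. Its fall was the largest of any member tested. Mean counts per library were 208 for Lfng, against 3194 for Notch1, and the error of Lfng is the wider one. Since the spread was pooled over transcripts, these errors do not measure the spread of a single gene between libraries.

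Hes1 encodes a repressor that is a direct target of Notch in many cell types and that also answers to other signals. Hes1 (NM_008235, chromosome 16, 30065357 to 30067796, plus strand) stood at 15.6 CPM in the Dox group and 6.93 CPM in the noDox group, from the authors' deposited table. The gene rose by 1.17 ± 0.093 on the log2 scale, with an adjusted p of 3.21e-34 in the authors' deposited table. A larger positive log2 fold change was seen for 44 of the genes tested. Its log2 fold change differed from that of Notch1 by -0.18 (95% interval -0.40 to 0.047) and exceeded that of Lfng by 2.32 (95% interval 2.03 to 2.60). Per kb of exon, the level of Hes1 was 8.01 times that of Lfng in the Dox group and 1.61 times in the noDox group.

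Hes7, the Hes gene of the segmentation clock and a repressor of Lfng in mouse presomitic mesoderm, was counted at a low level. Its mean was 5.82 counts per library, under the floor of 10, so it was not among the genes tested here. The level was 0.251 CPM in the Dox group and 0.0763 CPM in the noDox group, from the authors' deposited table. The ratio of the groups was 3.29 with a 95% interval of 1.77 to 6.12, and the adjusted p was 0.002, in the authors' deposited table. Under the same floor, 246 of 12822 genes (1.92%) had an adjusted p below that threshold, 106 of them (0.827%) with a higher value in the Dox group. With standard errors widened as above, its adjusted p was 0.859. Hes7 (NM_033041, chromosome 11, 69120453 to 69123259, plus strand) shares 234 exonic bases with 9130213A22Rik on the opposite strand, and Aloxe3 starts 2637 bases beyond its end.

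The Hey genes encode repressors related to the Hes proteins. Hey1 (NM_010423, chromosome 3, 8663359 to 8667038) had a mean level that 1 count in a Dox library and 2 counts in a noDox library would give. The mean level of Heyl (NM_013905, chromosome 4, 123233556 to 123249870) corresponds to 1 count in 1 noDox library. No fold change is given for Notch3, Dll1, Hey1 and Heyl, since both groups were under the 3 counts that a value of 0 allows.

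**Figure D2:**
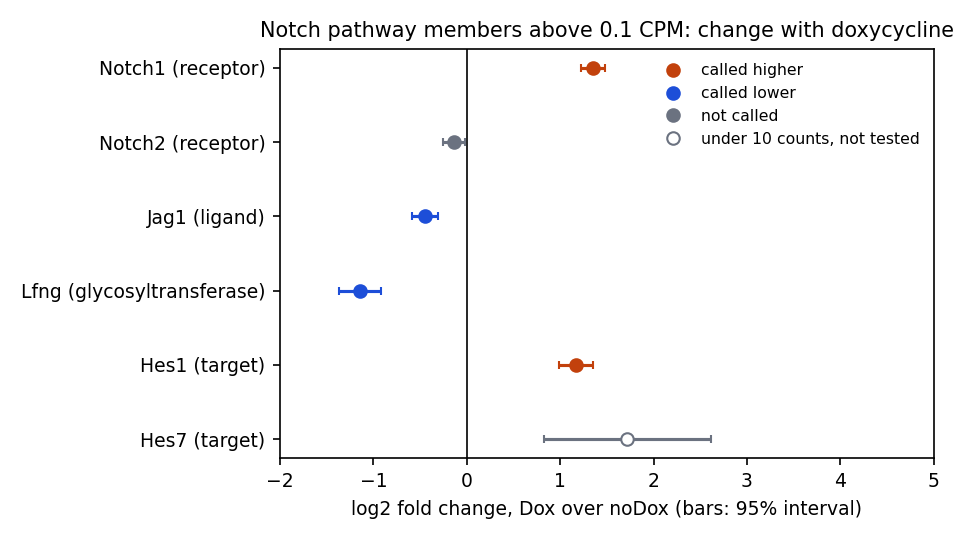
Log2 fold change of Dox over noDox for the 6 members with a mean above 0.1 CPM, as points with 95% intervals. Notch1 (1.35) and Hes1 (1.17) lie above 0 and Jag1 (-0.45) and Lfng (-1.14) below it; the open point is Hes7 (1.72), which has a wide interval and was not tested.

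Per kb of exon, the members had another order in each group. In the Dox group the order was Notch2 (21.4 CPM per kb), Notch1 (11.8), Hes1 (10.8), Jag1 (5.54), Lfng (1.35) and Hes7 (0.262), from the authors' deposited table. In the noDox group it was Notch2 (23.6 CPM per kb), Jag1 (7.55), Hes1 (4.80), Notch1 (4.65), Lfng (2.99) and Hes7 (0.0797), from the authors' deposited table. Hes1 and Notch1 were neighbours in both groups. Whether neighbours in this order differ beyond the spread between libraries cannot be read from 1 mean per group.

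In the order of the 2890 called genes whose mean was 1 CPM or more, the genes next to Notch1 in log2 fold change were Egr1 (1.37) and Chd7 (1.38) above it and Lif (1.27) and Axin2 (1.26) below it, in the authors' deposited table. The genes next to Lfng were Has2os (-1.15) and Mab21l1 (-1.15), which were more negative, and Cavin2 (-1.12) and Atoh8 (-1.12), which were less so, in the authors' deposited table. These are neighbours in size within 1 comparison.

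**Figure D3:**
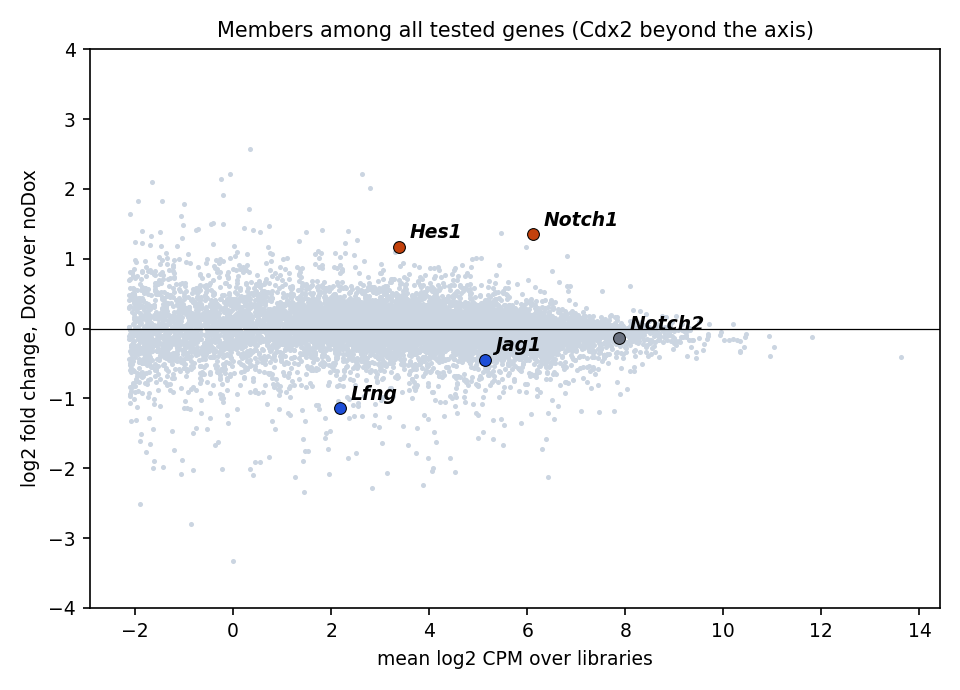
Log2 fold change of Dox over noDox against mean log2 CPM for the genes tested (grey) with the 5 tested members marked. Notch1 and Hes1 lie near the upper edge of the cloud at their level, Lfng near its lower edge, and Notch2 and Jag1 nearer to 0; Cdx2 is beyond the axis.

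Promoter windows of Notch1, Jag1 and Lfng, which were called, and of Hes7, which was not tested, are shown to set the letters at their starts, for short motifs that RBPJ, CDX and Hes factors are known to bind, beside their values. RefSeq windows (GRCm38.p6, 250 bases before to 50 after the start) were found for 7 of the 10 members, the others being Hes1, Hey1 and Heyl. Capitals mark the core of RBPJ sites, spelled TGGGAA, and the core of CDX sites, spelled TTTAT, searched on both strands. They also mark the E box, spelled CACGTG, and the N box, spelled CACNAG, to which Hes and Hey proteins are known to bind, again on both strands. The windows are chr2:26503773-26504072 for Notch1 and chr2:137116471-137116770 for Jag1, both on the minus strand, and chr5:140607091-140607390 for Lfng and chr11:69120203-69120502 for Hes7, both on the plus strand.
Notch1: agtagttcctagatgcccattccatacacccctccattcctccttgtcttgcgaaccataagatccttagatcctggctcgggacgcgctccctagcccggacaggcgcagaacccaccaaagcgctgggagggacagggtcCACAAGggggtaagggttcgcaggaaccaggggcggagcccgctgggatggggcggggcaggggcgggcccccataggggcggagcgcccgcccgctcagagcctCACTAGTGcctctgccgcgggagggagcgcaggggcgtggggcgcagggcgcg
Jag1: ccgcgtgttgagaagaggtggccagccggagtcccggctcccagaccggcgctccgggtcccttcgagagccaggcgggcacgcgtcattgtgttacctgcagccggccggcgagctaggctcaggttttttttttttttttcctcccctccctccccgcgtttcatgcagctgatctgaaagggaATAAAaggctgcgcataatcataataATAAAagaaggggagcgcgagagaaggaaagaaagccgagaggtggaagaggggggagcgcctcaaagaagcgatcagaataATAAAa
Lfng: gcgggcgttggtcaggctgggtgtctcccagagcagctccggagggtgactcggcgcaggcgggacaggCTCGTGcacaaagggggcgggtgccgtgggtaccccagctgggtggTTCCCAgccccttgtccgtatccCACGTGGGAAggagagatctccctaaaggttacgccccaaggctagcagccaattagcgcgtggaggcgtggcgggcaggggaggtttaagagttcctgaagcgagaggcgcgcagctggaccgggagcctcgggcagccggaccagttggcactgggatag
Hes7: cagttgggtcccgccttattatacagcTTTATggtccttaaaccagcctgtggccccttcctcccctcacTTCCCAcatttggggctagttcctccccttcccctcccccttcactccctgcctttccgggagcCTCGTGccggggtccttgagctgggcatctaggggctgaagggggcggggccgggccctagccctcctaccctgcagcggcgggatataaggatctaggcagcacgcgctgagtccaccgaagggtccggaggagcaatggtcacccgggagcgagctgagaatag

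The Lfng window holds the RBPJ core 2 times, and the copy that spans bases -108 to -103 (the start being base 0) overlaps the E box at -112 to -107. It also holds 1 N box. The Hes7 window holds 1 RBPJ core, 1 CDX core and 1 N box. The CDX core is found 3 times in the Jag1 window, with first bases at -64, -38 and 44, and 0 times in those of Notch1 and Lfng. Notch1 has 3 matches to the N box, a pair of them overlapping on opposite strands at the start, and 0 to the other motifs. Of 32851 windows in the RefSeq table, 25.6% hold the RBPJ core, 40.0% the CDX core, 7.15% the E box and 42.5% the N box. Among the 7 members with a window, 2 hold the RBPJ core, 2 the CDX core, 1 the E box and 5 the N box. Bases G and C make up 55.7% (Jag1) to 73% (Notch2) of these 7 windows, beside a median of 52.7% over all windows. The shares over all windows were not matched for this. A match describes letters in this window, and binding was not measured.

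None of the further pathway genes that were tested was called at 2-fold or more, which is near the 1.68% of all genes tested. Numbl fell just short of that size, at 1.98-fold lower. Of 60 further Notch pathway genes, 46 were tested, and 7 rose, 7 fell and 32 were not called in the authors' deposited table (limma). Their median log2 fold change was -0.028, beside -0.0011 over all genes tested, and 30.4% of them were called beside 24.7% of all. With standard errors widened, 2 were called lower (Numbl and Dtx4) and 0 higher.

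Of 21 genes tested for the nuclear complex and its corepressors, 6 rose, 2 fell and 13 were not called in the authors' deposited table. That is 38.1% called, beside 24.7% of all genes tested, of which 11.3% were higher and 13.4% lower. Rbpj, the DNA-binding partner of the Notch intracellular part, fell by 0.40 ± 0.074 on the log2 scale, to 21.6 CPM in the Dox group against 28.5 CPM in the noDox group, in the authors' deposited table. The Groucho corepressor genes Tle2 (0.60 ± 0.13) and Tle1 (0.31 ± 0.071), whose products bind Hes proteins, rose in the authors' deposited table. The other Tle genes tested, Tle3 (-0.08 ± 0.068), Tle4 (0.15 ± 0.084) and Tle5 (0.10 ± 0.064), were not called. Of the Tle genes, Tle2 had the lowest mean (2.22 CPM) and Tle5 the highest (92.3 CPM). Of the acetyltransferase genes, Kat2b (0.31 ± 0.080) and Ep300 (0.26 ± 0.064) rose and Kat2a (-0.27 ± 0.066) fell in the authors' deposited table. Crebbp, the most abundant of them at a mean of 220 CPM, was not called (-0.05 ± 0.062). The corepressor genes Spen (0.22 ± 0.066) and Hdac1 (0.22 ± 0.069) rose in the authors' deposited table. Maml1, Maml2 and Maml3, the Mastermind coactivator genes, were not called (0.04 ± 0.068, -0.23 ± 0.12 and 0.15 ± 0.077) in the authors' deposited table.

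Trafficking and turnover genes had 4 falls and 0 rises among 11 tested in the authors' deposited table (limma), with 5 of the 11 at an unadjusted p under 0.05. The 4 are 36.4% of those tested, beside 13.4% of all genes tested that were lower and 11.3% that were higher. Numbl, which encodes an inhibitor of Notch related to NUMB, fell by 0.98 ± 0.071 on the log2 scale, to 24.4 CPM in the Dox group against 48.2 CPM in the noDox group, in the authors' deposited table. Numb itself was not called (0.18 ± 0.082, adjusted p 0.131) in the authors' deposited table. Dtx4 (-0.73 ± 0.085), a Deltex ubiquitin ligase gene, fell in the authors' deposited table, as did Fbxw7 (-0.28 ± 0.078), whose product marks the Notch intracellular part for degradation. Mib1 (-0.25 ± 0.065), a ubiquitin ligase gene needed for ligand activity, fell as well in the authors' deposited table.

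The protease genes that cut Notch (Adam10, Adam17, Furin and the gamma-secretase subunits) had 0 calls among 9 tested, with 2 at an unadjusted p under 0.05, in the authors' deposited table (limma), beside 24.7% called of all genes tested. Glycosyltransferase genes other than Lfng had 0 calls among 3 tested, with 2 at an unadjusted p under 0.05. Rfng, radical fringe, stood at -0.08 ± 0.083 in the authors' deposited table, and Mfng, manic fringe, was under the floor. All 6 further ligand genes (Jag2, Dll3, Dll4, Dlk1, Dlk2 and Dner) were under the floor as well, the highest of them at a mean of 0.105 CPM. Of 6 further target genes, Hes6 was tested and rose by 0.59 ± 0.098 on the log2 scale (adjusted p 3.96e-08) in the authors' deposited table. HES6 is known to oppose HES1. Hes2, Hes3, Hes5, Hey2 and Nrarp were under the floor, and 2 of them, Hes5 and Hey2, had no reads.

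**Figure D4:**
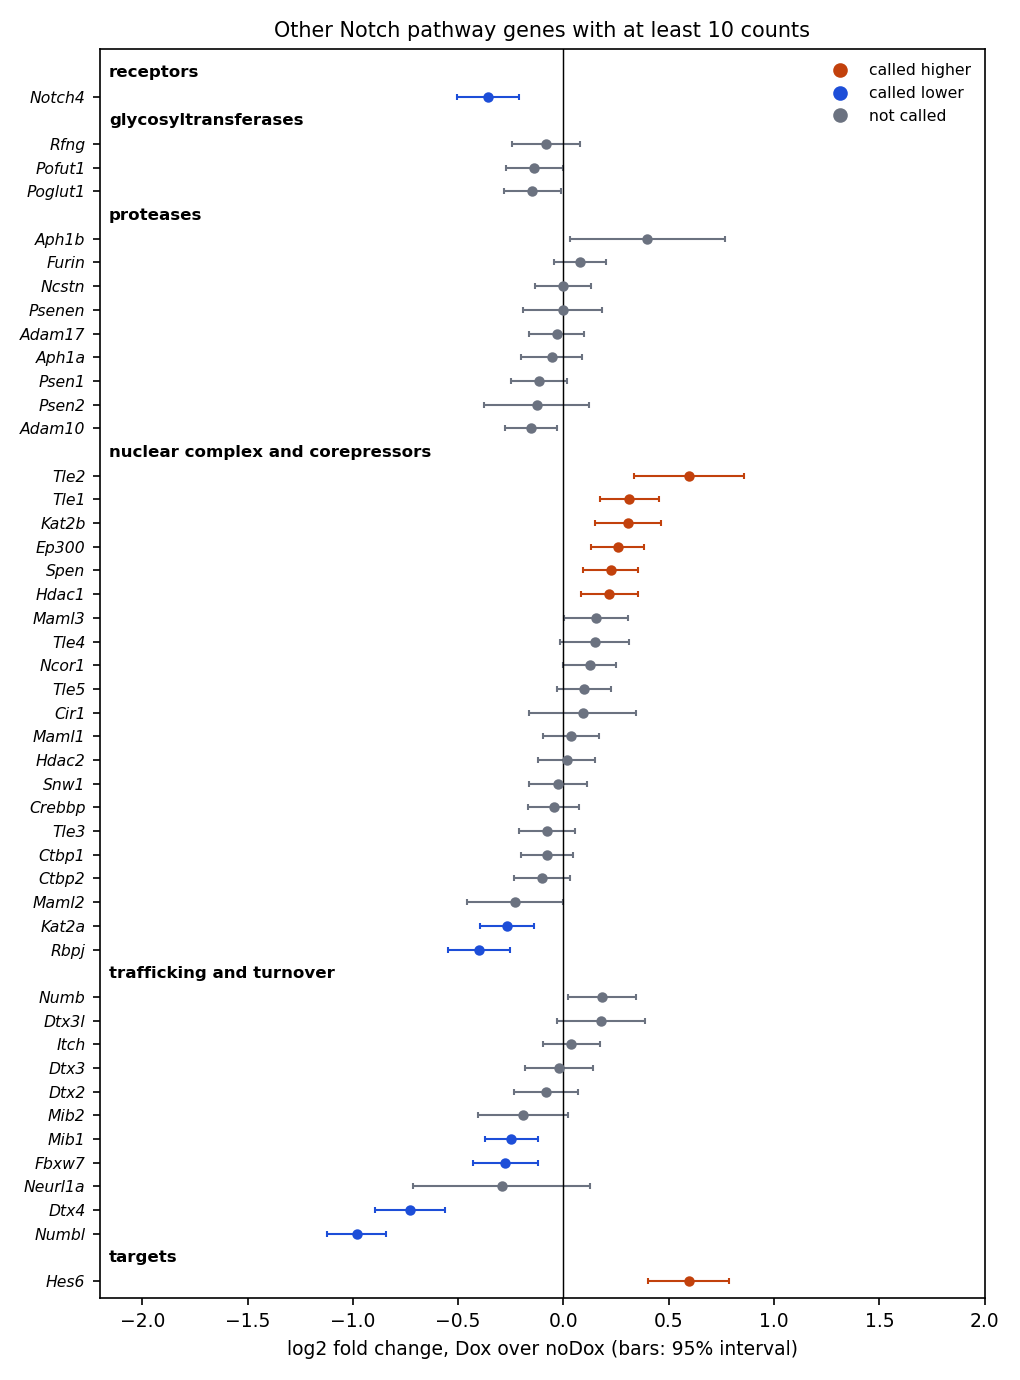
Log2 fold change of Dox over noDox with 95% intervals for the 46 further pathway genes tested, grouped by role and ordered within each role. Numbl (-0.98) and Dtx4 (-0.73) lie farthest below 0, and Tle2 (0.60) and Hes6 (0.59) farthest above it; grey points were not called.

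Genes that cycle in the presomitic mesoderm or act with the segmentation clock were of interest beside Lfng and Hes7. Of 31 such genes, 14 were tested, and 6 rose, 6 fell and 2 were not called in the authors' deposited table (limma). The 12 called are 85.7% of those tested, beside 24.7% of all genes, and several of them were known from earlier results of these data to change. The median log2 fold change of the 14 was -0.016, and with standard errors widened 2 were called higher and 5 lower. On the Notch and FGF side, Egr1 (1.37 ± 0.071), Spry4 (0.55 ± 0.083) and Bcl2l11 (0.32 ± 0.088) rose in the authors' deposited table. Spry2 (-0.81 ± 0.072), Id1 (-0.78 ± 0.075), Snai1 (-0.68 ± 0.079) and Dusp6 (-0.42 ± 0.065) fell in the authors' deposited table. Of the FGF feedback genes, Spry4 thus rose, Spry2 and Dusp6 fell, and Dusp4 was not called (-0.02 ± 0.068). Spry4 was not among the 2 genes called higher with standard errors widened.

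On the Wnt side, the feedback gene Axin2 (1.26 ± 0.15), Dact1 (1.08 ± 0.18) and Phlda1 (0.41 ± 0.065) rose in the authors' deposited table. Myc (-1.30 ± 0.065) and Has2 (-1.67 ± 0.091), a hyaluronan synthase gene, fell in the authors' deposited table. Axin2 and Dact1 had mean levels of 2.55 and 1.69 CPM, below those of Myc (93.3 CPM) and Has2 (11.8 CPM). The row of Has2 shares exonic bases with Has2os and that of Dact1 with 4930474H06Rik, on opposite strands. All 11 genes of the determination front, among them Mesp2, Tbx6, Msgn1 and Ripply2, were under the floor, and 8 of them had no reads in any library.

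**Figure D5:**
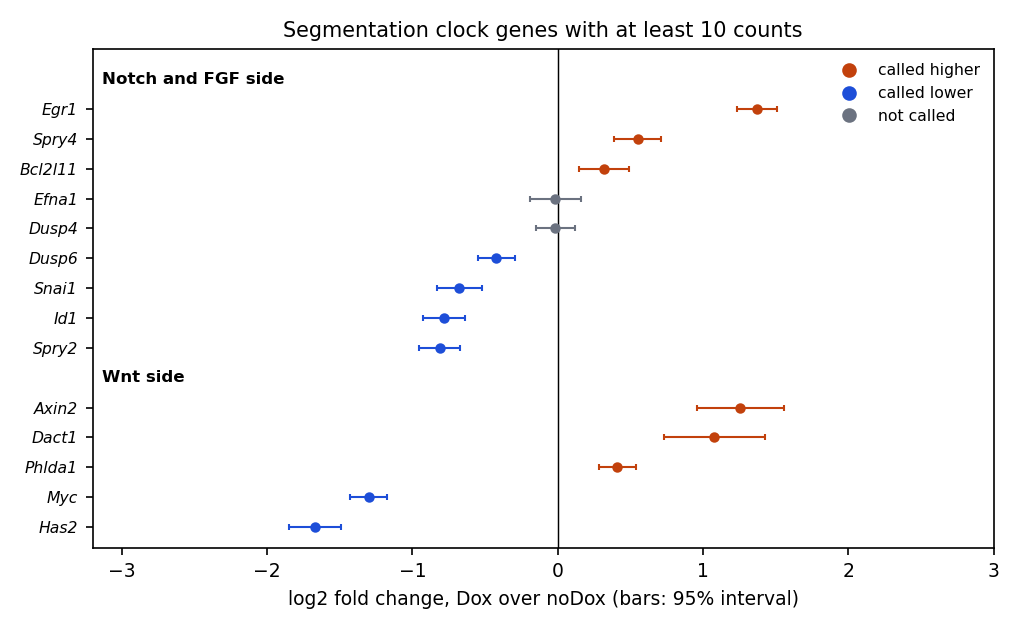
Log2 fold change of Dox over noDox with 95% intervals for the 14 segmentation clock genes tested, members left out. Egr1 (1.37) and Axin2 (1.26) lie farthest above 0, and Has2 (-1.67) and Myc (-1.30) farthest below it.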

How the data were processed

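Nuclear RNA of 4 directional RNA-seq libraries (2 Dox, 2 noDox, 500000 cells each, per the labels) was compared. Per the submitters' processing notes, which give no role or order, limma, edgeR, HOMER 4.10, Picard, SAMtools 1.10 and STAR 2.7.1a were used with mm10. Per the file headers, the authors' deposited table of 40739 transcripts holds limma's log2 fold change, mean log2 CPM, moderated t score, p-value and adjusted p-value. Other columns used, the start, end and exon length in bases, are deposited there as well. No column of values per library was used, and since the labels do not state that replicates were separate cultures, the spread behind p-values may be technical. Its p-values equal those of t with 44446 degrees of freedom, so the spread was pooled over transcripts. That number is 3707 above the number of transcripts held. It would be 1 per row with 3 model coefficients if the fit also covered 3707 rows not held here. No source used here says what the third coefficient is.

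The lowest mean level equals 0.5 counts in a library of 45712476 effective counts (geometric mean). Products of counts derived from it were whole for 100% of 20788 low rows (tolerance 0.01), in steps of 0.5 counts, which gave the counts of near-silent members. Levels are geometric means, the group levels being the mean log2 CPM plus or minus 0.5 times the log2 fold change. Standard errors are the log2 fold change divided by t, and 95% intervals assume normal errors. Both rest on the pooled spread and do not measure that of a single gene between libraries. The median standard error of genes tested was 0.080. Genes stand by their transcript with the highest mean, were tested at a mean of at least 10 counts (0.230 CPM), and were called where the authors' adjusted p was under 0.05.

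The planned tests on counts were replaced by the authors' own test. Members and lists were chosen with earlier results of these data known. Named genes are all members, the neighbours of Notch1 and Lfng, and Cdx2. Called genes of at least 1 CPM in the lists of further pathway and clock genes are named too, up to 12 per list by p. Spen, Hdac1, Tle3, Tle4, Tle5, Crebbp, Dusp4, Maml genes, Numb, Rfng, Adam10, Adam17 and Furin were named outside this rule after their values were seen. So were marker genes, genes sharing exonic bases and genes under the floor. Of the pathway list as planned, 1 gene is not reported here and is left out of its counts. Pathway and clock lists share 3 genes (Dll3, Hes5 and Nrarp), or 5% and 9.68% of each. Exon overlap with other genes was read from GENCODE M21 and also touched the members Notch3 and Dll1, and Axin2, Phlda1, Numbl, Spen, Tle1, Tle2 and Ep300. Scripts in Python 3.11.15 (scipy 1.17.1, statsmodels 0.14.6) were tested on simulated data.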

Additional observations from a re-analysis of the deposited data

How the results depend on the processing

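Under 9 alternatives the calls of Notch1, Hes1 and Lfng, and the lack of one for Notch2, were kept in all that were run, with log2 fold changes of 1.35 to 1.40, 1.13 to 1.22, -1.20 to -1.10 and -0.14 to -0.051. For these genes and Jag1, taking the longest transcript, no floor or a higher floor left fold change and adjusted p as they were. Those alternatives could not alter their calls. The call of Jag1 was lost only with widened standard errors (adjusted p 0.0928, otherwise 8.25e-09 to 5.33e-07). Widening also left 3 members, 2 further pathway genes, 7 clock genes and 509 genes in all called, against 4, 14, 12 and 3047. Those errors hold real changes as well, so this is a stricter test and no measure of replicate spread. Without a floor, Hes7 was called too, which made 5. With the median of 77 ribosomal protein genes (-0.046) set to 0, 59.7% of all called genes were higher, against 45.7% in the authors' deposited table, and 16 further pathway genes were called. No paired analysis was possible because the table holds no value per library; leaving out single libraries and another count model were not run for the same reason. Depth limits Hes7 and the 4 near-silent members.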
